A study of Mus musculus and Homo sapiens with 34 samples.

Results

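Messenger RNA of 10 genes of insulin receptor signalling and its FoxO branch was followed through 34 RNA-seq libraries of lung tumour cultures. The genes were the receptors Insr and Igf1r, the adaptors Irs1 and Irs2, the transcription factors Foxo1, Foxo3 and Foxo4, and Pik3ip1, Tp53inp1 and Sesn3. They were chosen by name, in upper case in the human tables, and all 10 were listed and passed the count filter in each of the 7 count tables. Mouse tables spell Tp53inp1 as Trp53inp1, and that row was used. The 7 tables together listed 30194 gene symbols.

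The libraries fell into 17 groups of 2 replicates, 22 from mouse and 12 from human cultures, and a comparison sets a treatment against its own control. The 3154 organoids carried p53frt, Rosa-FSF-CreERT2 and Hnf4aflox among their engineered alleles, and every 3154 group shares them. They received 4OHT, which activates CreERT2, or ethanol (EtOH). In one experiment the 4OHT (2 mM per the labels) was given for 2 days and RNA was taken 2 weeks later. In another, 4OHT or ethanol was combined with 3 nM MRTX1133, a small-molecule inhibitor, or its control, for 48 h. The 1027B organoids and the 3311 cell line carried p53frt, Rosa-FSF-CreERT2, Foxa1flox and Foxa2flox among their engineered alleles in all groups, and the labels do not say whether the Foxa1 and Foxa2 alleles had been recombined. The 1027B organoids received 10 nM trametinib, a MEK inhibitor, 20 nM MRTX1133 or a control for 48 h. The 3311 cells received 50 nM trametinib or a control for 48 h. The human lung adenocarcinoma lines H358 and H1651 received 20 nM trametinib or a control for 48 h. H1651 cells with a lentiviral HNF4A construct received 1 µg/mL doxycycline for 7 days or none. Each culture is a single line, and nothing in the labels says that the replicates were separate cultures, so p-values measure the spread between these libraries, which may be technical.

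Insulin and insulin-like growth factors activate the receptor tyrosine kinases INSR and IGF1R, which phosphorylate the IRS adaptors. The adaptors recruit PI3 kinase, and the lipid it makes activates AKT. AKT phosphorylates FoxO factors and keeps them out of the nucleus. When AKT is quiet, FoxO factors enter the nucleus and switch on genes of growth restraint, stress defence and catabolism, and also genes for the receptors and adaptors themselves.

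Total counts per library ranged from 19692517 to 45284286. Levels are given as CPM, read counts relative to the library size after TMM scaling, and changes as log2 fold changes of treated against control with their SE (n = 2 against 2). A gene is called where edgeR's quasi-likelihood test gives a Benjamini-Hochberg adjusted p under 0.05 over all genes of the table. Hnf4a fell in 3154 after 4OHT, from 371 ± 79.6 to 60.7 ± 10.3 CPM at 2 weeks and from 225 ± 6.60 to 49.9 ± 0.677 CPM at 48 h (SD, n = 2). HNF4A rose with doxycycline from 41.5 ± 7.89 to 95.6 ± 1.73 CPM (SD, n = 2). Hnf4a also fell in 1027B with trametinib (-1.01, edgeR adjusted p = 0.00535) and MRTX1133 (-0.76, edgeR adjusted p = 0.0375). With MRTX1133 in 4OHT-treated 3154 it fell by 0.86 (edgeR adjusted p = 0.0185). It was not called with trametinib in 3311 (-0.385) or H1651 (-0.066), or with MRTX1133 in ethanol-treated 3154 (-0.31). HNF4A had 0 counts in H358. Etv4, an ERK output gene, fell with trametinib, with log2 fold changes of -6.31 in 3311, -3.56 in 1027B and -7.22 in H358. With MRTX1133 it fell by 1.35 in 1027B (edgeR adjusted p = 0.0175) and by 1.00 in 4OHT-treated 3154 (edgeR adjusted p = 0.0277). It was at -2.22 in H1651 with trametinib (adjusted p = 0.999) and -0.38 in ethanol-treated 3154 with MRTX1133 (adjusted p = 0.470), neither called. Epithelial markers summed to 4073 to 11415 CPM per library. A list of 8 fibroblast and muscle markers summed to at most 143 CPM in mouse libraries, where Acta2 was the main gene in 3154. In H1651 it went from 536 to 591 CPM untreated to 323 to 342 with doxycycline, and from 340 to 394 CPM in vehicle to 437 to 548 with trametinib. Epithelial markers went from 4507 to 4513 CPM untreated to 5837 to 6314 with doxycycline. The fibroblast and muscle list went in H358 from a range of 34.7 to 39.3 to a range of 119.9 to 149 CPM with trametinib, and the part of these lists in the results on H358 and H1651 was not tested. Endothelial markers in H358 went from 11.6 to 14.2 CPM in vehicle to 20.8 to 21.0 CPM with trametinib, while its epithelial sum went from 5679 to 5966 to 4073 to 4319. In 3154 at 2 weeks endothelial markers went from 5.07 to 5.93 CPM to 2.17 to 2.51 with 4OHT. Immune markers went from 58.5 to 81.0 CPM to 34.7 to 45.6 with trametinib in 3311 and from 79.3 to 94.2 to 56.4 to 69.1 in 1027B. In 3311 Ptprc of this list was at 0 in every library, and Cd14, Cd68 and Csf1r were the genes above 1 CPM. In 1027B Ptprc was above 1 CPM in vehicle and not with trametinib. With 4OHT in 3154 immune markers went from 42.6 to 66.2 CPM to 68.6 to 75.2 at 2 weeks. At 48 h they went from 32.1 to 41.2 to 44.4 to 51.7 under vehicle and from 33.1 to 37.5 to 54.0 to 56.3 under MRTX1133. The part of these lists was not tested either. In these bulk samples, fewer cells of a type and less RNA per cell cannot be told apart.

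Sesn3 and Tp53inp1 were called in 7 of the 11 comparisons with a control, Irs2 in 5, Igf1r and Foxo4 in 4, Irs1 in 3, Pik3ip1 in 2 and Foxo3 in 1. Insr and Foxo1 were called in 0 of the 11, though both had calls under other settings, some of which are given below. Irs2 had a negative log2 fold change in all 11 comparisons, from -1.23 to -0.17, and the 5 that were called were all lower. All 4 calls of Igf1r were higher. Tp53inp1 went both ways, higher in 3 and lower in 4. Comparisons within 1027B share the vehicle libraries, and those within the 48 h experiment on 3154 share libraries too.

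In 3311 cells, trametinib changed 4 of the 10 genes, 1 higher and 3 lower, where 39% of all 15224 genes tested were called (19.4% higher, 19.6% lower). In 1027B organoids, trametinib changed 5, 4 higher and 1 lower, against 26.7% of 14555 genes (13.5% higher, 13.2% lower). MRTX1133 in 1027B changed 2, both higher, against 6.27% (3.01% higher, 3.26% lower). In these 3 comparisons the median log2 fold change of the 10 genes was -0.35, 0.37 and 0.32, beside 0.01, -0.01 and 0.01 for all genes tested. In H358, trametinib changed 7 of the 10 genes, 5 higher and 2 lower, against 46.8% of 18972 genes (23.5% higher, 23.2% lower). The median over the 10 was 0.43 and over all genes 0.02. The count of 5 for trametinib in 1027B was 3 without either vehicle library, and the count of 2 for MRTX1133 was 1 without MRTX1133 replicate 2 and 0 without any other library. With the replicate block the MRTX1133 count was 5, where 3515 of 14555 genes were called. For trametinib in 1027B the block added Insr and Foxo3 to the 5, where 6540 of 14555 genes were called. In H1651, trametinib gave a call for 0 of the 10 and for 0% of 18277 genes (0% higher, 0% lower), with edgeR. At an unadjusted p under 0.05 there were 0 of the 10 and 597 of all genes, and DESeq2 called 0 of the 10 and 47 of all genes. With the replicate number as a block, edgeR called 4 of the 10 and 1881 of all genes.

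In the 48 h experiment on 3154, MRTX1133 after ethanol gave a call for 0 of the 10 genes with edgeR, against 0.349% of 15458 genes (0.317% higher, 0.0323% lower). Of the 10, 4 had an unadjusted p under 0.05, and DESeq2 called 0. Over all genes these counts were 1820 and 319. After 4OHT, MRTX1133 changed 2, both higher, against 4.64% (2.1% higher, 2.54% lower). 4OHT changed 4 genes under vehicle, 2 in each direction, against 31% (15.3% higher, 15.7% lower). Under MRTX1133, 4OHT changed 4, 1 higher and 3 lower, against 27.7% (13.2% higher, 14.5% lower). At 2 weeks, 4OHT changed 4 genes, 1 higher and 3 lower, against 9.81% of 14492 genes (4.03% higher, 5.78% lower). Doxycycline in H1651 changed 1, which was lower, against 1.42% of 17351 genes (1.04% higher, 0.386% lower). Without 1 library these counts moved, and so did the counts over all genes, which are given in the closing section. The 2 calls for MRTX1133 after 4OHT became 0 without any of the 4 libraries. The 4 calls for 4OHT under vehicle became 2 without either 4OHT library and 7 without ethanol replicate 2, and the 4 under MRTX1133 became 2 without ethanol replicate 1 and 1 without 4OHT replicate 1. The 4 calls at 2 weeks became 7 and 2 without ethanol replicate 1 and 2, and 0 and 1 without 4OHT replicate 1 and 2. The single call for doxycycline became 0 without untreated replicate 2 or treated replicate 1. The shares of the 10 genes called are near those of all genes for trametinib in 3311 and for both 4OHT comparisons at 48 h.

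**Figure D1:**
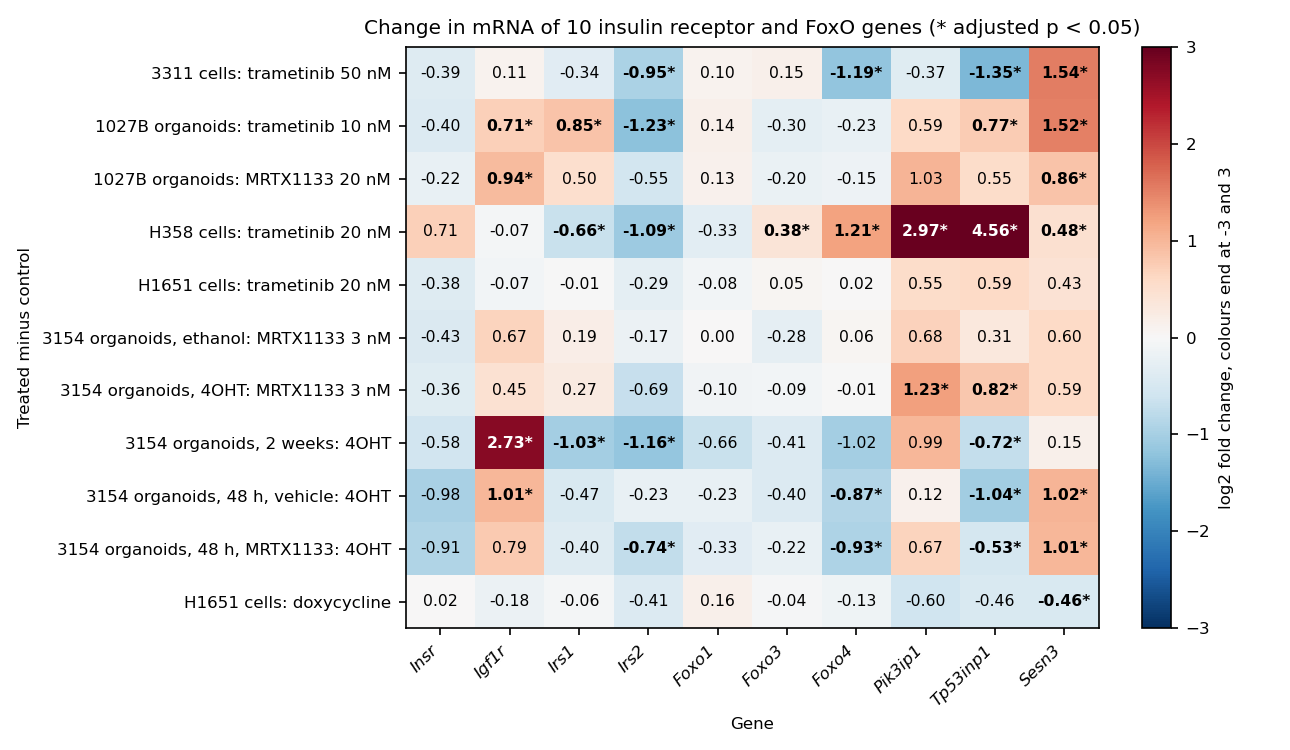
The log2 fold change (treated minus control) of each of the 10 genes (columns) in each of the 11 comparisons with a control (rows), as colour and number, with an asterisk and bold type where the adjusted p is under 0.05. Irs2 is negative in every row, and the largest value is that of Tp53inp1 in H358, 4.56.

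Insr encodes the insulin receptor (ENSMUSG00000005534, chr8:3122061-3279617, minus strand; positions here are those of the mouse GRCm38 annotation, since the labels name several builds without assigning them). Its level was 118 and 118 CPM in the 3311 vehicle libraries and 94.2 and 86.5 CPM with trametinib. Both treated libraries lay below both controls, but the change of -0.39 ± 0.13 (SE) missed the threshold in edgeR (adjusted p = 0.0502), and was called with RLE size factors (edgeR adjusted p = 0.0487). In 3154 at 2 weeks it was at 32.7 and 38.7 CPM after ethanol and 21.1 and 26.5 after 4OHT. These groups did not overlap and gave no call (-0.58, edgeR adjusted p = 0.108). Leaving out ethanol replicate 1 was among the alternatives that gave one (-0.71, edgeR adjusted p = 0.0462). In 1027B it was 66.9 and 81.8 CPM in vehicle, 54.5 and 58.2 with trametinib and 59.0 and 68.4 with MRTX1133. The same-numbered 1027B libraries varied together, and with the replicate number as a block the edgeR change with trametinib was -0.39 (adjusted p = 0.00568, range over the alternatives 0.00568 to 0.0951), against -0.40 (adjusted p = 0.0719) without it. In 3154 at 48 h the ethanol vehicle libraries were far apart, at 97.9 and 45.9 CPM, and the 4OHT vehicle libraries were at 37.5 and 35.3. This change, -0.98 (edgeR adjusted p = 0.0648), was called by DESeq2 (adjusted p = 0.0203). With 1 library left out it ranged from -1.434 to -0.34. Under MRTX1133 Insr was at 64.3 and 42.1 CPM after ethanol and 24.8 and 32.0 after 4OHT. That change was called by DESeq2 (adjusted p = 0.0465) and by edgeR with only these groups in the fit (adjusted p = 0.0224). Insr was scarce in H358, at 3.47 and 2.15 CPM in vehicle and 5.33 and 3.85 with trametinib. The groups did not overlap, and the change of 0.71 (edgeR adjusted p = 0.0740) was called without a count filter (edgeR adjusted p = 0.0467) and without vehicle replicate 1 or trametinib replicate 2 (edgeR adjusted p = 0.0266 and 0.00777). H1651 had 35.9 and 24.3 CPM in vehicle and 27.7 and 18.5 with trametinib, overlapping groups. With the replicate number as a block that change was called in edgeR (-0.38, adjusted p = 0.000115), against adjusted p = 0.999 without it.

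Igf1r, the receptor for insulin-like growth factors (ENSMUSG00000005533, chr7:67952827-68233668, plus strand), was higher in each of its 4 calls. In 3154 at 2 weeks it was close to absent after ethanol, with 38 and 14 counts (1.25 and 0.629 CPM). After 4OHT it had 204 and 162 counts (6.70 and 6.07 CPM), a log2 fold change of 2.73 ± 0.40 (SE, edgeR adjusted p = 0.0178). The groups did not overlap, yet the call was lost without either 4OHT library. At 48 h, 4OHT took it from 11.6 and 7.05 CPM to 19.6 and 17.9 CPM under vehicle (1.01 ± 0.26 SE, edgeR adjusted p = 0.0219), and the call was lost without either 4OHT vehicle library, or with only these groups in the fit (edgeR adjusted p = 0.0570). Under MRTX1133 the same comparison gave 17.5 and 12.1 CPM after ethanol and 24.1 and 27.0 after 4OHT, with no overlap and no call (0.79 ± 0.25 SE, edgeR adjusted p = 0.0521). It was called by DESeq2 (adjusted p = 0.0300) and by edgeR with only these groups in the fit (adjusted p = 0.0235). MRTX1133 against vehicle after 4OHT (0.45 ± 0.25 SE, edgeR adjusted p = 0.362) did not overlap either and, among the alternatives run, was called only with those groups alone in the fit (edgeR adjusted p = 0.0154).

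In 1027B, Igf1r was at 26.3 and 25.8 CPM in vehicle, 38.6 and 46.6 with trametinib and 46.4 and 53.7 with MRTX1133. Both drugs raised it, by 0.71 ± 0.14 (SE, edgeR adjusted p = 0.0126) and 0.94 ± 0.14 (SE, edgeR adjusted p = 0.0170). The trametinib call was lost without vehicle replicate 1 or 2 or trametinib replicate 2, and the MRTX1133 call without any 1 of the 4 libraries. In the other cultures Igf1r was abundant and moved little. It lay between 90.1 and 124 CPM in 3311, between 136 and 154 in H358 and between 131 and 156 in H1651 across vehicle and trametinib, and the groups overlapped in each line. With doxycycline in H1651 it was at 183 and 156 CPM, below both untreated libraries at 194 and 190 CPM, without a call (-0.18).

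Irs1 (ENSMUSG00000055980, chr1:82233101-82291416, minus strand) encodes an adaptor that links both receptors to PI3 kinase. Of its exon bases, 30.9% lie under exons of Gm9747 on the other strand; the library kit keeps strand, the counting setting is not given in the sources used here, and Gm9747 was not analysed here. Promoters from RefSeq (GRCm38.p6, 250 bases before to 50 after the start) were found for 7 of the 10 genes. They were searched on both strands for GTAAACA, a FoxO-binding element, and CAAAACA, an insulin response sequence. GTAAACA was in 0 of the 7 and in 3.65% of 32851 promoters. CAAAACA was in 2 of the 7, those of Irs1 and Irs2, and in 6.28% of all. In Irs1 its reverse complement TGTTTTG begins 111 and 32 bases before the start, and in Irs2 37 bases before it. Both promoters also hold the E-box CACGTG, 1 base from that match in Irs2 and overlapping the first match in Irs1, and both sets of letters were found anywhere in 0.408% of promoters. The stretch of the Irs1 promoter that holds these letters is shown because the only matches were in the adaptor genes, on the minus strand at chr1:82291455-82291572 (GRCm38.p6), with CACGTG and TGTTTTG in capitals. In the first run of capitals they share 2 bases.
Irs1: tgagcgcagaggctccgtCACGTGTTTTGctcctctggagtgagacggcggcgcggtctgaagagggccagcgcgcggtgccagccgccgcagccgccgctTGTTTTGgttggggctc
A match describes letters in this window and nothing about binding.

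Irs1 changed in opposite directions in different cultures. In 1027B it was at 32.5 and 24.9 CPM in vehicle and rose to 51.4 and 52.2 with trametinib (0.85 ± 0.15 SE, edgeR adjusted p = 0.00813). With MRTX1133 it was at 40.5 and 40.6 CPM, above both vehicle libraries, without a call (0.50 ± 0.15 SE, edgeR adjusted p = 0.101). With the replicate number as a block the MRTX1133 value became a call in edgeR (0.50, adjusted p = 0.0184, range over the alternatives 0.0184 to 0.152). In H358 it fell from 124 and 138 CPM to 69.1 and 96.8 with trametinib (-0.66 ± 0.16 SE, edgeR adjusted p = 0.0105).

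In 3154 at 2 weeks Irs1 fell after 4OHT, from 15.8 and 19.3 CPM to 9.52 and 7.65 (-1.03 ± 0.22 SE, edgeR adjusted p = 0.0419). The groups did not overlap, and the call was lost without ethanol replicate 2 or either 4OHT library. At 48 h the ethanol vehicle libraries, 43.2 and 22.9 CPM, enclosed the 4OHT vehicle libraries, 23.0 and 24.8. In 3311 the vehicle libraries were at 126 and 168 CPM and the trametinib libraries at 100.4 and 133, which overlapped. H1651 held 20.8 to 24.5 CPM across vehicle and trametinib.

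Irs2 (ENSMUSG00000038894, chr8:10984681-11008458, minus strand) is the second IRS adaptor and is known as a FoxO target in liver. In 3311 it went from 87.8 and 105 CPM in vehicle to 48.5 and 51.2 with trametinib (-0.95 ± 0.15 SE, edgeR adjusted p = 0.00354). In 1027B it went from 66.2 and 73.6 CPM to 25.7 and 33.8 (-1.23 ± 0.15 SE, edgeR adjusted p = 0.00289). In H358 it went from 27.6 and 24.2 CPM to 12.2 and 12.1 (-1.09 ± 0.14 SE, edgeR adjusted p = 0.000453). Irs2 fell with trametinib in these 3 cultures with no overlap between groups, and these calls held when any 1 library was left out. In H1651 vehicle and trametinib overlapped, at 49.5 and 38.4 against 40.3 and 31.6 CPM (-0.29 ± 0.18 SE). With the replicate number as a block that change was called in edgeR (-0.29, adjusted p = 0.00115), against adjusted p = 0.999 without it.

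With 20 nM MRTX1133, Irs2 in 1027B was at 46.0 and 49.3 CPM, below both vehicle libraries and above both trametinib libraries. Against vehicle this was -0.55 ± 0.15 (SE, edgeR adjusted p = 0.0847), and with the replicate number as a block -0.55 (edgeR adjusted p = 0.00510, range over the alternatives 0.00510 to 0.0889). Among the 10 genes, edgeR called 0 between MRTX1133 and trametinib in 1027B, against 0% of all genes (0% higher, 0% lower). Of the 10, 3 had an unadjusted p under 0.05 and DESeq2 called 2, and over all genes these counts were 2357 and 675. With the replicate block edgeR called Irs2 (0.69, adjusted p = 0.00446, range over the alternatives 0.00446 to 0.172) and Sesn3 (-0.65, adjusted p = 0.00259, range over the alternatives 0.00259 to 0.157). The drug doses differed, 20 nM of one and 10 nM of the other.

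After 4OHT in 3154, Irs2 at 2 weeks went from 74.9 and 95.5 CPM to 32.2 and 44.0 (-1.16 ± 0.21 SE, edgeR adjusted p = 0.0292), a call lost without 4OHT replicate 1. At 48 h the 4OHT effect under MRTX1133 was from 44.8 and 37.6 CPM to 20.7 and 28.6 (-0.74 ± 0.19 SE, edgeR adjusted p = 0.0250), lost without ethanol MRTX1133 replicate 1 or 4OHT MRTX1133 replicate 1. Under vehicle it was from 51.0 and 41.7 CPM to 41.1 and 38.2, which did not overlap but differed little (-0.23 ± 0.19 SE, edgeR adjusted p = 0.406). After 4OHT, the same libraries give MRTX1133 against vehicle, from 41.1 and 38.2 CPM to 20.7 and 28.6, with no overlap and no call (-0.69 ± 0.19 SE, edgeR adjusted p = 0.0904). It was called by DESeq2 (adjusted p = 0.0342) and by edgeR with only these groups in the fit (adjusted p = 0.00996). After ethanol the MRTX1133 groups overlapped (-0.17 ± 0.19 SE, edgeR adjusted p = 0.799). The interaction of the agents was -0.52 ± 0.27 (SE, edgeR adjusted p = 0.773). Among the 10 genes edgeR called 0 interactions, against 0% of all genes (0% higher, 0% lower), 1 of the 10 had an unadjusted p under 0.05, and DESeq2 called 0 of the 10 and 30 of all genes, where 1150 had an unadjusted edgeR p under 0.05.

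**Figure D2:**
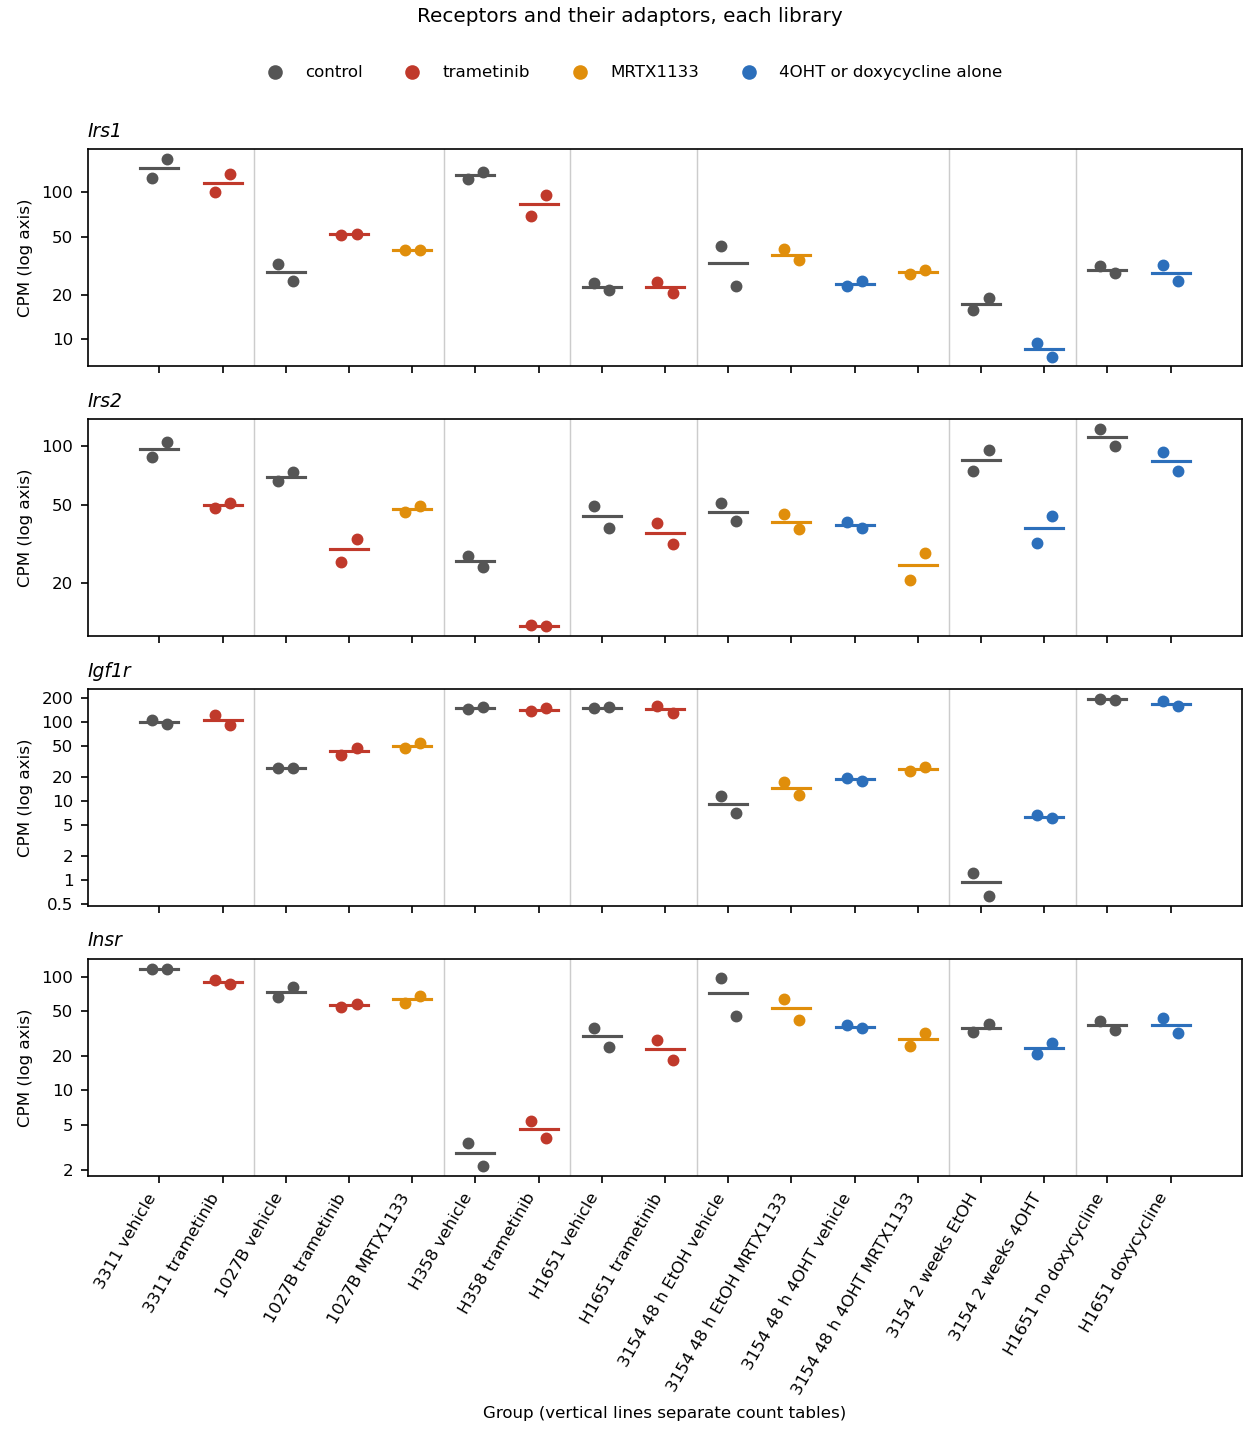
CPM (log axis) of Irs1, Irs2, Igf1r and Insr in each library (points) of the 17 groups, with the group mean as a line and vertical lines between count tables. Irs2 in the trametinib libraries of 3311, 1027B and H358 lies below every vehicle library of the same culture, and Insr in H358 lies at 2.15 to 5.33 CPM.

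Among the FoxO factors, Foxo4 had 4 calls, Foxo3 1 and Foxo1 0. Foxo1 (ENSMUSG00000044167, chr3:52268336-52353221, plus strand), the FoxO factor best known from insulin action in liver, had log2 fold changes between -0.66 and 0.16 over the 11 comparisons. The lowest was that at 2 weeks, where 36.1 and 53.1 CPM after ethanol became 24.7 and 31.6 after 4OHT (edgeR adjusted p = 0.137). With 1 library left out this change ranged from -0.93 to -0.358. With the replicate number as a block it was called (-0.65, edgeR adjusted p = 0.00636). Foxo3 (ENSMUSG00000048756, chr10:42181841-42276755, minus strand) was called once, in H358, where it went from 62.7 and 58.4 CPM to 79.7 and 77.4 with trametinib (0.38 ± 0.10 SE, edgeR adjusted p = 0.0183). That call was lost without either vehicle library. The human tables also list FOXO3B, a near-identical copy with at most 657 counts in a library, and how reads were split between the copies is uncertain. In 1027B with trametinib, Foxo3 was at 203 and 299 CPM in vehicle and 182 and 225 with the drug, overlapping groups; with the replicate number as a block the change was called in edgeR at -0.28 (adjusted p = 0.0218, range over the alternatives 0.0218 to 0.451).

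Foxo4 (ENSMUSG00000042903, chrX:101254528-101260873, plus strand) was called lower in 3 comparisons and higher in 1. In 3311, 133 and 134 CPM in vehicle became 52.7 and 64.2 with trametinib (-1.19 ± 0.15 SE, edgeR adjusted p = 0.00164). In H358, 4.84 and 3.76 CPM became 10.0 and 9.93 (1.21 ± 0.19 SE, edgeR adjusted p = 0.00148). Both calls held when any 1 library was left out. In 1027B it was at 29.2 and 33.3 CPM in vehicle, 25.0 and 28.3 with trametinib and 24.7 and 31.7 with MRTX1133, and it was not called (edgeR adjusted p = 0.335 and 0.642). In H1651 all 4 libraries lay between 4.17 and 4.38 CPM.

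4OHT lowered Foxo4 in 3154 at 48 h. Under vehicle it went from 61.6 and 48.9 CPM to 31.1 and 29.4 (-0.87 ± 0.17 SE, edgeR adjusted p = 0.00722), a call lost without either 4OHT vehicle library. Under MRTX1133 it went from 64.2 and 50.8 CPM to 29.3 and 30.9 (-0.93 ± 0.17 SE, edgeR adjusted p = 0.00587), lost without 4OHT MRTX1133 replicate 1. At 2 weeks, 56.4 and 85.5 CPM became 31.7 and 38.4, with no overlap and no call (-1.02 ± 0.23 SE, edgeR adjusted p = 0.0524), though with a call in DESeq2 (adjusted p = 0.00170) and in edgeR without a count filter (adjusted p = 0.0379) or without ethanol replicate 1 (adjusted p = 0.00172). With MRTX1133 against its control, the groups overlapped after either agent.

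**Figure D3:**
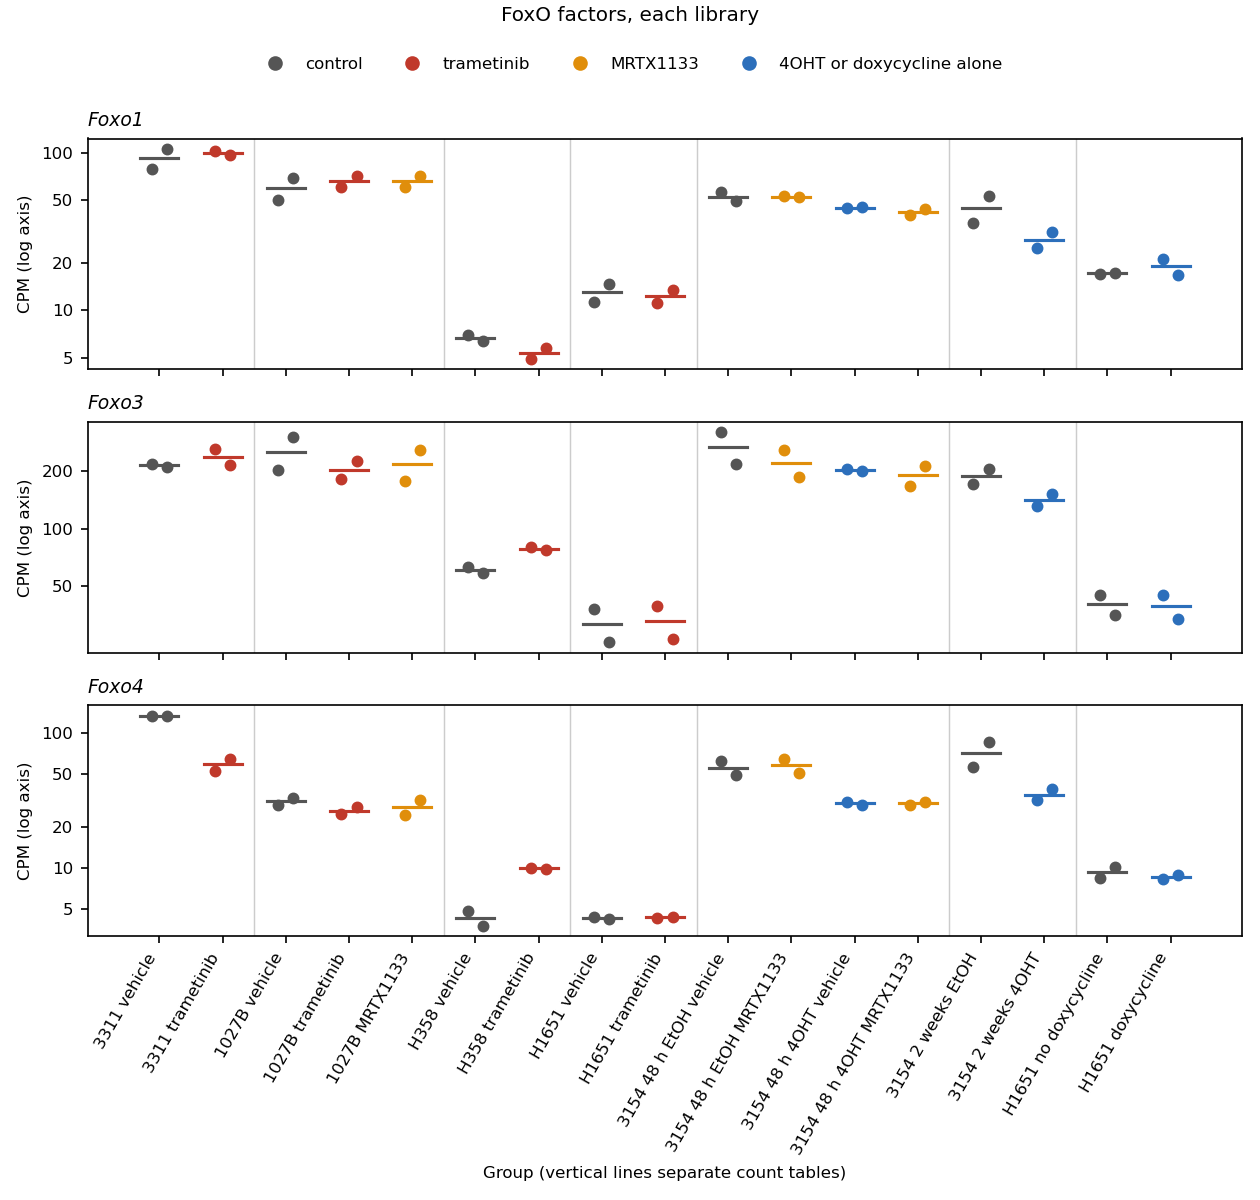
CPM (log axis) of Foxo1, Foxo3 and Foxo4 in each library (points) of the 17 groups, with the group mean as a line and vertical lines between count tables. Foxo4 is lower with trametinib in 3311 (52.7 and 64.2 against 133 and 134 CPM) and higher in H358 (10.0 and 9.93 against 4.84 and 3.76 CPM).

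Pik3ip1 (ENSMUSG00000034614, chr11:3330401-3342971, plus strand) encodes a membrane protein that restrains PI3 kinase. In H358 it stood at 5.75 and 4.75 CPM in vehicle and at 39.5 and 42.8 with trametinib, a log2 fold change of 2.97 ± 0.15 (SE, edgeR adjusted p = 1.1e-05). The groups were far apart and the call held when any 1 library was left out. In 3154 after 4OHT, MRTX1133 took it from 3.94 and 4.87 CPM to 10.6 and 9.97 (1.23 ± 0.27 SE, edgeR adjusted p = 0.0469), a call lost without any 1 of the 4 libraries or with RLE size factors (edgeR adjusted p = 0.0502). After ethanol the MRTX1133 libraries were at 7.89 and 5.07 CPM against 4.80 and 3.27, also without overlap (0.68 ± 0.28 SE, edgeR adjusted p = 0.391). In 3311 the vehicle libraries, 36.6 and 24.4 CPM, overlapped the trametinib libraries, 24.7 and 22.6. In 1027B it was close to absent, with 4 and 7 counts in vehicle, 16 and 3 with trametinib and 7 and 19 with MRTX1133, too few to read a change. H1651 held 17 to 52 counts per library across vehicle and trametinib.

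Tp53inp1 encodes a stress protein of autophagy and p53 signalling (Trp53inp1, ENSMUSG00000028211, chr4:11156431-11174379, plus strand), and the mouse cultures carry the p53frt allele in every group. It had the largest change of the 10 genes. In H358 it stood at 7.38 and 7.35 CPM in vehicle and 183 and 166 with trametinib, a log2 fold change of 4.56 ± 0.12 (SE, edgeR adjusted p = 1.4e-06). In 1027B it rose from 20.2 and 15.9 CPM to 34.5 and 26.8 with trametinib (0.77 ± 0.21 SE, edgeR adjusted p = 0.0396), a call lost without either vehicle library or trametinib replicate 1. MRTX1133 in 1027B gave 30.2 and 22.4 CPM, above both vehicle libraries (0.55 ± 0.21 SE, edgeR adjusted p = 0.191), and with the replicate number as a block this became a call in edgeR (0.54, adjusted p = 0.00751, range over the alternatives 0.00751 to 0.203). In 3311 the direction was the opposite. The vehicle libraries were at 208 and 109 CPM and the trametinib libraries at 60.4 and 64.1, below both (-1.35 ± 0.28 SE, edgeR adjusted p = 0.0102). With 1 library left out this change ranged from -1.741 to -0.816.

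In 3154, Tp53inp1 fell with 4OHT and rose with MRTX1133 after 4OHT. Under vehicle, 34.5 and 39.0 CPM after ethanol became 17.7 and 18.0 after 4OHT (-1.04 ± 0.14 SE, edgeR adjusted p = 0.00152), and the call held when any 1 library was left out. MRTX1133 after 4OHT brought it to 31.1 and 31.8 CPM (0.82 ± 0.14 SE, edgeR adjusted p = 0.0241), a call lost without any 1 of the 4 libraries. After ethanol, MRTX1133 gave 48.5 and 42.5 CPM, above both controls and not called (0.31 ± 0.13 SE, edgeR adjusted p = 0.424). The interaction, 0.51 ± 0.19 (SE), was not called (edgeR adjusted p = 0.609). Under MRTX1133 the 4OHT effect was -0.53 ± 0.13 (SE, edgeR adjusted p = 0.0214), lost without ethanol MRTX1133 replicate 1 or either 4OHT MRTX1133 library. At 2 weeks it went from 35.3 and 35.4 CPM to 19.9 and 23.1 (-0.72 ± 0.16 SE, edgeR adjusted p = 0.0458), lost without ethanol replicate 2 or either 4OHT library.

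Sesn3 (ENSMUSG00000032009, chr9:14275067-14333101, plus strand), a FoxO target that restrains mTORC1, rose with trametinib in 3 cultures. In 3311 it went from 69.8 and 50.8 CPM to 213 and 138 with trametinib (1.54 ± 0.25 SE, edgeR adjusted p = 0.00411). In 1027B it went from 46.9 and 44.95 CPM to 139.8 and 123 (1.52 ± 0.13 SE, edgeR adjusted p = 0.00104). These calls held when any 1 library was left out. MRTX1133 in 1027B took it to 92.0 and 75.2 CPM, between vehicle and trametinib (0.87 ± 0.13 SE, edgeR adjusted p = 0.0176), a call lost without vehicle replicate 1 or 2 or MRTX1133 replicate 1. In H358 it went from 37.8 and 45.1 CPM to 55.9 and 59.5 (0.48 ± 0.12 SE, edgeR adjusted p = 0.0145), lost without vehicle replicate 1.

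4OHT also raised Sesn3 in 3154 at 48 h. Under vehicle it went from 29.8 and 23.6 CPM to 57.1 and 51.2 (1.02 ± 0.16 SE, edgeR adjusted p = 0.00285), and under MRTX1133 from 38.1 and 43.1 to 78.8 and 84.2 (1.01 ± 0.16 SE, edgeR adjusted p = 0.00300). Both calls held when any 1 library was left out. The MRTX1133 libraries lay above both matching controls, by 0.60 ± 0.16 (SE, edgeR adjusted p = 0.195) after ethanol and 0.59 ± 0.15 (SE, edgeR adjusted p = 0.0737) after 4OHT, without a call. The change after 4OHT was called by DESeq2 (adjusted p = 0.0262) and by edgeR with only these groups in the fit (adjusted p = 0.00281). At 2 weeks the groups overlapped, at 36.8 and 41.9 CPM after ethanol and 46.0 and 41.4 after 4OHT. In H1651, doxycycline lowered it from 96.8 and 105 CPM to 71.2 and 76.2 (-0.46 ± 0.08 SE, edgeR adjusted p = 0.0487), a call lost without replicate 2 of the untreated cells or replicate 1 of the treated, and with RLE size factors. The fibroblast and muscle marker sum was also lower, from 536 to 591 to 323 to 342 CPM, and its part in this result was not tested.

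**Figure D4:**
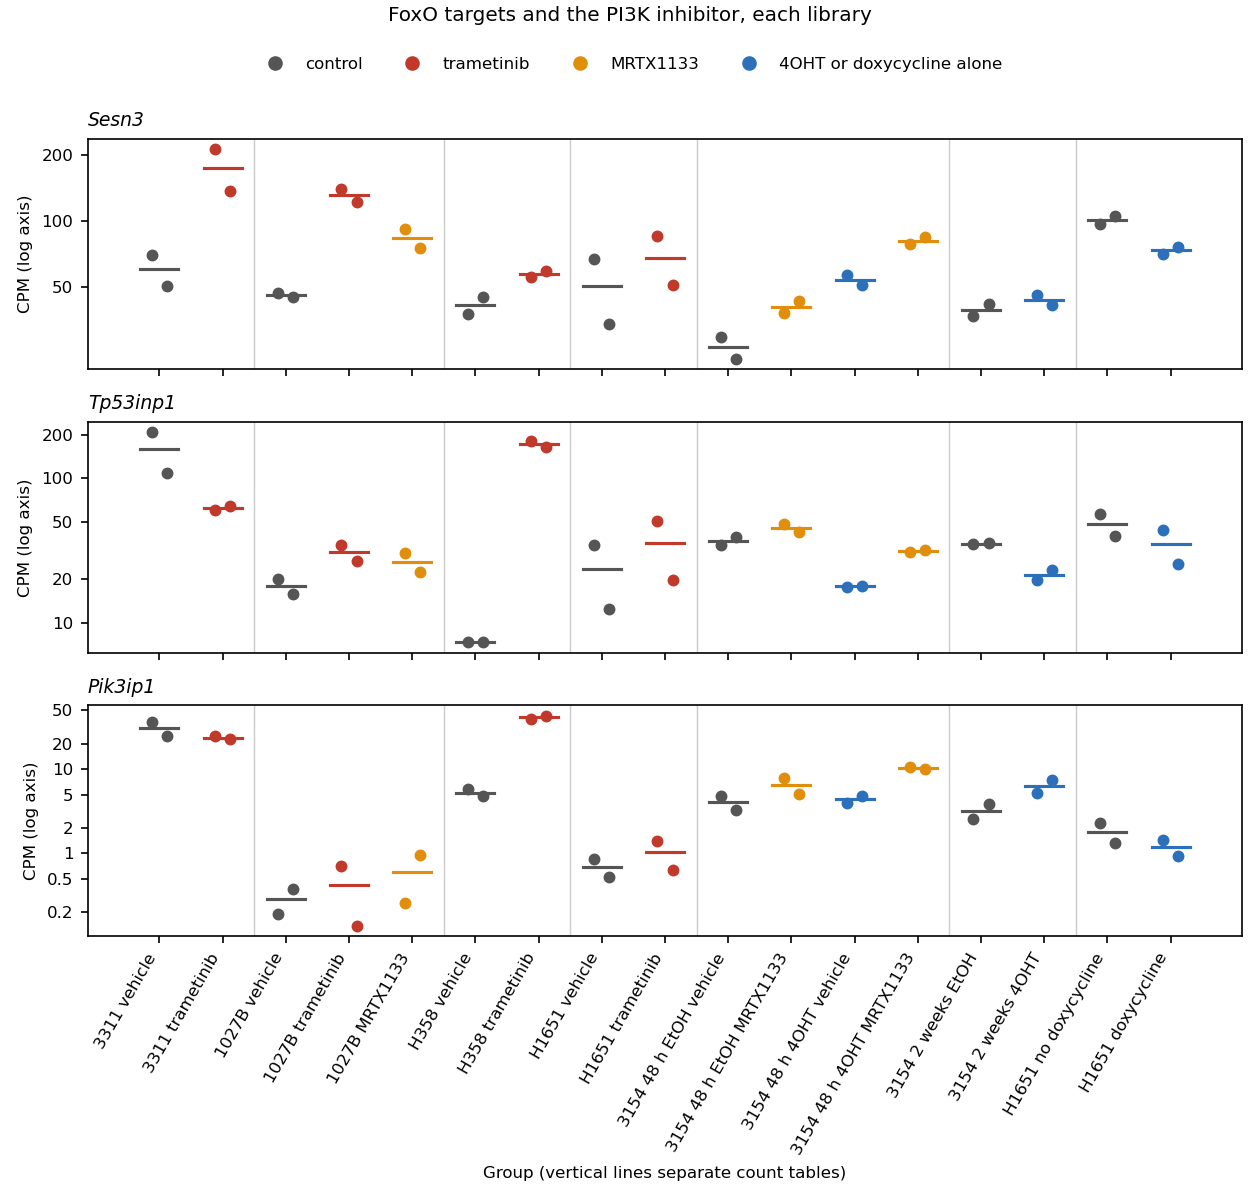
CPM (log axis) of Sesn3, Tp53inp1 and Pik3ip1 in each library (points) of the 17 groups, with the group mean as a line and vertical lines between count tables. Sesn3 lies higher with trametinib than in any vehicle library of 3311, 1027B and H358, whereas Tp53inp1 lies lower in 3311 and higher in 1027B and H358.

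The human lines received the same dose of trametinib for the same time. In H1651 the replicates differed more than the groups for Tp53inp1 (TP53INP1), at 34.4 and 12.5 CPM in vehicle and 50.9 and 19.9 with trametinib, and for Sesn3 (SESN3), at 67.1 and 33.9 in vehicle and 85.1 and 51.1 with trametinib. Replicate 1 was the higher library in each of these groups, and within each replicate number the trametinib library was the higher for both genes. Over all genes, replicate differences correlated at 0.623 between the H1651 groups. With the replicate number as a block edgeR called TP53INP1 (0.60, adjusted p = 1.3e-08) and SESN3 (0.46, adjusted p = 2.7e-07). Without it both had an adjusted p of 0.999. With 1 library left out, the H1651 change ranged from -0.245 to 1.495 for TP53INP1 and from 0.017 to 1.007 for SESN3. With every library these changes were 0.59 and 0.43. A fit of both lines together, chosen after seeing the data, tested the response of H358 minus that of H1651. It called 4 of the 10 genes, where 19.3% of 21188 genes were called. TP53INP1 differed by 4.01 ± 0.71 (SE, edgeR adjusted p = 0.00617) and PIK3IP1 by 2.46 ± 0.47 (SE, edgeR adjusted p = 0.00849), the latter lost without H1651 vehicle replicate 1. FOXO4 differed by 1.22 ± 0.26 (SE, edgeR adjusted p = 0.0134), lost without H358 trametinib replicate 1 or H358 vehicle replicate 2. IRS2 differed by -0.78 ± 0.23 (SE, edgeR adjusted p = 0.0492), a call lost without any 1 of 6 libraries, the exceptions being H1651 vehicle replicate 1 and H1651 trametinib replicate 2. For SESN3 the difference was 0.07, with a 95% interval from -0.94 to 1.08. The count of 4 fell to 2 without H358 trametinib replicate 1 or H358 vehicle replicate 2. The counts of the lines were deposited as separate tables, so the line and the table cannot be told apart.

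**Figure D5:**
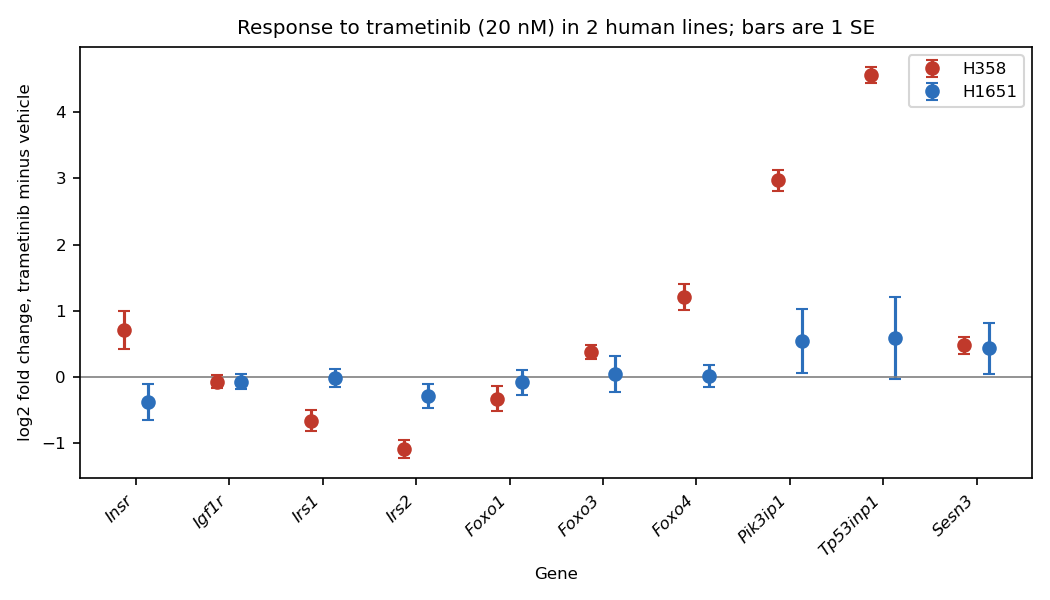
The log2 fold change with trametinib (20 nM) of each of the 10 genes (points, bars of 1 SE) in H358 and H1651. TP53INP1 (4.56 against 0.59) and PIK3IP1 (2.97 against 0.55) stand farthest apart.

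Levels can be compared between genes per length of exon in the mouse tables. Per kilobase, Foxo3 was the most abundant of the 10 in the vehicle libraries of 1027B (33.1 ± 9.04 CPM per kb, SD, n = 2) and after ethanol in 3154 at 48 h (35.3 ± 9.50) and 2 weeks (24.8 ± 3.22). At 2 weeks it overlapped the next gene, Foxo4 (20.4 ± 5.90). In 3311 vehicle, Foxo4 came first (38.2 ± 0.183) and Foxo3 next (28.3 ± 0.635), without overlap. Irs2 followed among the top 3 in 3154 and 1027B. Pik3ip1 was last in 1027B (0.0670 ± 0.0307), Igf1r in 3154 after ethanol (0.0560 ± 0.0263 at 2 weeks and 0.554 ± 0.190 at 48 h) and Sesn3 in 3311 (3.95 ± 0.878).

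The wider pathway was read through 51 further genes of insulin and IGF ligands, binding proteins, PI3 kinase, AKT and mTOR. With trametinib, 11 of 45 tested rose and 12 fell in 3311, 11 of 45 rose and 11 fell in 1027B, and 15 of 49 rose and 10 fell in H358. These are 51.1%, 48.9% and 51% of the list, where 39%, 26.7% and 46.8% of all genes were called. Their median log2 fold changes were 0.06, 0.01 and 0.02, beside 0.01, -0.01 and 0.02 for all genes. Igfbp4, whose product binds IGF ligands, fell with trametinib from 970 ± 30.9 to 76.9 ± 14.3 CPM in 3311 and from 624 ± 231 to 44.7 ± 6.11 in 1027B (SD, n = 2). IGFBP5 rose in H358 from 0.195 ± 0.0196 to 16.3 ± 3.01 CPM and IGFBP3 from 45.7 ± 3.51 to 288 ± 12.6 (SD, n = 2), whereas Igfbp3 fell in 1027B from 192.5 ± 43.1 to 36.1 ± 3.86. After 4OHT in 3154 under vehicle, 10 of 43 rose and 6 fell, 37.2% beside 31% of all genes. Trib3, a pseudokinase that binds AKT, fell from 186 ± 31.1 to 16.6 ± 3.63 CPM, and Sgk1, a kinase related to AKT, rose from 2.81 ± 0.767 to 22.5 ± 3.95 (SD, n = 2). At 2 weeks 2 of 44 rose and 4 fell (13.6% beside 9.81%), Deptor, an mTOR inhibitor, among the latter (from 100.6 ± 10.1 to 33.4 ± 0.585 CPM). Under MRTX1133, 4OHT raised 5 of 43 and lowered 5 (23.3% beside 27.7%). MRTX1133 raised 4 of 45 and lowered 2 in 1027B (13.3% beside 6.27%), raised 2 of 43 and lowered 3 in 3154 after 4OHT (11.6% beside 4.64%) and gave 0 calls of 43 after ethanol, beside 0.349%. Doxycycline raised 2 of 47 and lowered 0 (4.26% beside 1.42%), and trametinib in H1651 gave 0 calls of 48, beside 0%.

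Another 35 genes described as FoxO targets also went in different directions in different cultures. With trametinib 15 of 30 tested rose and 2 fell in H358, with a median of 0.43 beside 0.02 for all genes, and 11 of 29 rose and 3 fell in 1027B, with a median of 0.36 beside -0.01. In 3311, 8 of 31 rose and 10 fell, with a median of -0.19 beside 0.01. These are 56.7%, 48.3% and 58.1% of the list, where 46.8%, 26.7% and 39% of all genes were called. Fbxo32, the ubiquitin ligase of muscle atrophy, rose in each, from 18.9 ± 3.16 to 159 ± 48.1 CPM in H358, from 8.35 ± 1.13 to 18.6 ± 2.77 in 1027B and from 10.2 ± 1.64 to 53.0 ± 13.8 in 3311 (SD, n = 2). Gadd45a, a growth arrest gene, fell in 3311 from 96.8 ± 27.7 to 17.8 ± 4.04 CPM. 4OHT in 3154 lowered 12 of 28 and raised 2 under vehicle at 48 h (median -0.53 beside 0.01) and lowered 4 of 28 and raised 2 at 2 weeks (median -0.49 beside 0.02). These are 50% and 21.4%, beside 31% and 9.81% of all genes. Gadd45a fell there from 78.3 ± 3.51 to 10.5 ± 0.129 CPM and from 83.6 ± 7.71 to 25.1 ± 5.90 CPM, and Fbxo32 rose from 1.07 ± 0.448 to 3.94 ± 0.107 and from 1.60 ± 0.298 to 7.39 ± 0.148. With MRTX1133 the counts were 2 of 29 higher and 1 lower in 1027B (10.3% beside 6.27%), 3 of 28 higher and 1 lower in 3154 after 4OHT (14.3% beside 4.64%), and 0 of 28 after ethanol, beside 0.349%. Under MRTX1133, 4OHT raised 5 of 28 and lowered 9 (50% beside 27.7%). Doxycycline raised 1 of 33 and lowered 0 (3.03% beside 1.42%), and trametinib in H1651 gave 0 calls of 32, beside 0%.

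With log2 CPM centred within each table, the likeness of a gene to another was measured as their root-mean-square difference over all 34 libraries. The 9587 genes tested in every table were compared. Among the 3 closest to Irs2 were PTBP3 (0.211) and BCAR3 (0.225), beside a median of 0.509 for all genes. Among the 3 closest to Sesn3 were GGACT (0.243) and APBB1 (0.246), beside 0.582. For Tp53inp1, MOB3B (0.503), ATP8A1 (0.535) and BMF (0.548) were nearest, beside 0.975. For Pik3ip1 they were KLHL24 (0.480), DENND3 (0.483) and PSAP (0.496), beside 0.792. Closest to Foxo4 were MIB2 (0.160), SYNGR1 (0.164) and SNX21 (0.171), beside 0.501. Among the 10 genes themselves, Insr and Foxo3 were the most alike (0.240) and Igf1r and Tp53inp1 the least (1.16). Genes that vary little have small differences by construction, and libraries of a table share depth and handling.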

How the data were processed

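RNA was extracted with Trizol and columns, poly(A)-selected and made into directional paired-end libraries, per the labels' protocols. The 7 tables hold raw read counts per gene, as deposited by the authors. The submitters' processing notes name cutadapt 3.5, STAR 2.7.6a and featureCounts 1.6.3 and the builds mm10, mm39 and hg38, without saying which build served which table, and the strand setting is not given in the sources used here. Each table was fitted separately in edgeR 4.0.16 (R 4.3.3, limma 3.58.1): filterByExpr, TMM, glmQLFit and glmQLFTest, with Benjamini-Hochberg adjustment over all genes tested and a threshold of 0.05. All groups of a table entered one fit without a replicate block. A standard error is the log2 fold change divided by the square root of F. Counts of 22 mouse and 12 human libraries, of 19692517 to 45284286 each, were grouped from the labels. The joint fit of H358 and H1651 was added after seeing the data. Scripts were tested on simulated counts.

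The 10 genes and both wider lists were chosen with earlier results of these data known. All 10 were tested in every comparison, and the text gives a selection of the values. From each wider list a selection is named of the called genes with the 3 largest absolute changes per comparison, with the values of such a gene repeated for other comparisons. For likeness, the 3 nearest genes were found (log2 CPM, prior count 2) and are named for a selection of the 10. Some items, among them an engineered allele and genes near in pattern, are not reported here. Alternatives were DESeq2 1.42.0, RLE size factors, no count filter, a replicate block, only the 2 groups compared, and each library left out. Replicate numbers in the labels are not said to mark a shared culture. Over all genes, the differences between replicates correlated between groups at 0.243, 0.372 and 0.414 in 1027B, and the values for other cultures are given below. Fits with the replicate number as a block are given beside the main fits, which have none. No library pair of a group held identical counts or differed by as little as sampling noise. Sequences come from RefSeq (GRCm38.p6), gene positions from GENCODE (GRCm38). Human positions were not used here.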

Additional observations from a re-analysis of the deposited data

Results flagged for a closer look

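The trametinib response of 4 genes differed between the human lines H358 and H1651 by a test of the difference itself, in the joint fit chosen after seeing the data. The log2 response of H358 minus that of H1651 was 4.01 for TP53INP1, 2.46 for PIK3IP1, 1.22 for FOXO4 and -0.78 for IRS2 (edgeR adjusted p = 0.00617, 0.00849, 0.0134 and 0.0492). In the same fit 19.3% of 21188 genes were called. The IRS2 call was lost without any 1 of 6 libraries, and the count of 4 fell to 2 without H358 trametinib replicate 1 or H358 vehicle replicate 2. With 2 libraries a group, no search for single outlying libraries was made. In H1651 the ERK output gene DUSP6 went from 50.8 ± 1.41 to 6.37 ± 1.55 CPM with trametinib (SD, n = 2), and in H358 from 168 ± 13.2 to 0.931 ± 0.405.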

How the results depend on the processing

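With 2 libraries a group, leaving 1 out leaves an arm whose spread is taken from the other groups. The count of the 10 genes called stayed within 1.5 times under RLE size factors, no count filter, DESeq2, the replicate block and, where run, only the 2 groups compared, for trametinib in 3311, 1027B and H358, for MRTX1133 in 3154 after ethanol, for 4OHT at 48 h and for the interaction. With the replicate block the count was 9 for 4OHT at 2 weeks, 4 for doxycycline, 5 for MRTX1133 in 1027B, 2 for MRTX1133 against trametinib, 4 for trametinib in H1651 and 7 for the difference between the human lines. With DESeq2 it was 4 for MRTX1133 in 1027B, 2 for MRTX1133 against trametinib and 4 for MRTX1133 in 3154 after 4OHT. With RLE size factors it was 0 for doxycycline and 1 for MRTX1133 in 3154 after 4OHT, where only the 2 groups compared gave 5. The cause of these moves was not tested. Without 1 library the count ranged from 0 to 7 for 4OHT at 2 weeks, 0 to 1 for doxycycline, 3 to 4 for trametinib in 1027B, 0 to 1 for MRTX1133 in 1027B, 0 to 0 for MRTX1133 in 3154 after 4OHT, 2 to 7 and 1 to 4 for 4OHT at 48 h under vehicle and MRTX1133, 0 to 2 for trametinib in H1651 and 2 to 4 for the difference between the human lines.

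In every culture, 1027B included, the labels pair libraries only by a replicate number. Some correlations of replicate differences outside 1027B were above the 0.243 to 0.414 found within it. Replicate differences correlated at 0.427 for 4OHT at 2 weeks, 0.318 for doxycycline, 0.126 in 3311, 0.318 in H358, 0.623 in H1651 with trametinib and -0.251 to 0.549 between the groups of the 48 h experiment. In H1651 with trametinib the 4 calls with the block were TP53INP1 (0.60, edgeR adjusted p = 1.3e-08), SESN3 (0.46, adjusted p = 2.7e-07), IRS2 (-0.29, adjusted p = 0.00115) and INSR (-0.38, adjusted p = 0.000115). With doxycycline the block added IRS2 (-0.41), TP53INP1 (-0.48) and IGF1R, lower at -0.18 (adjusted p = 0.00262). At 2 weeks it added Insr (-0.59, adjusted p = 0.00982), Foxo1 (-0.65, adjusted p = 0.00636), Foxo3 (-0.40, adjusted p = 0.0169), Foxo4 (-0.99, adjusted p = 0.00143) and Pik3ip1 (0.99, adjusted p = 0.0173). It also added Insr in 3311, H358 and for 4OHT under vehicle (adjusted p = 0.0464, 0.00448 and 0.0493), Igf1r for 4OHT under MRTX1133 (0.82, adjusted p = 0.0254) and IRS1, INSR and FOXO3 for the difference between the human lines (adjusted p = 0.000726, 0.000102 and 0.0103). Over all genes, the block gave 4563 calls for 4OHT at 2 weeks against 1421 without it, 3048 against 247 for doxycycline, 6540 against 3880 for trametinib and 3515 against 913 for MRTX1133 in 1027B, 2050 against 0 for MRTX1133 against trametinib, 1881 against 0 for trametinib in H1651 and 8472 against 4087 for the difference between the human lines. DESeq2 called 2336, 441, 1593, 675 and 47 for 4OHT at 2 weeks, doxycycline, MRTX1133 in 1027B, MRTX1133 against trametinib and trametinib in H1651. It called 319 against 54 for MRTX1133 in 3154 after ethanol, 1291 against 717 after 4OHT and 30 against 0 for the interaction. With only the 2 groups compared the counts were 1 for MRTX1133 against trametinib, 0 and 3932 for MRTX1133 after ethanol and 4OHT and 3154 for 4OHT under vehicle, against 4795. Without a count filter trametinib in H1651 had 2. Without 1 library the counts ranged from 395 to 2790 for 4OHT at 2 weeks, 232 to 412 for doxycycline, 3772 to 6298 (against 5938) in 3311, 1336 to 2754 and 138 to 349 for trametinib and MRTX1133 in 1027B, 0 to 2 for MRTX1133 against trametinib, 0 to 193 in H1651, 0 to 309 and 0 to 23 for MRTX1133 after ethanol and 4OHT, 1668 to 5964 and 1745 to 2805 (against 4279) for 4OHT under vehicle and MRTX1133, and 2177 to 3667 for the difference between the human lines.

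Signs turned only where a gene was not called. Foxo1 with MRTX1133 after ethanol was 0.001, and -0.026 with RLE size factors and with DESeq2, -0.001 without a count filter and -0.018 with only the 2 groups compared. Sesn3 in the interaction was -0.014, and 0.013 with RLE size factors and 0.009 with DESeq2. The other turns came from leaving out 1 library, and the lowest and highest log2 values are given here. For doxycycline in H1651 the ranges were -0.023 to 0.314 for Foxo1, -0.263 to 0.158 for Foxo3, -0.267 to 0.018 for Foxo4, -0.214 to 0.221 for Insr and -0.249 to 0.099 for Irs1. For MRTX1133 against trametinib in 1027B the ranges were -0.136 to 0.113 for Foxo1, -0.196 to 0.346 for Foxo3, -0.115 to 0.254 for Foxo4 and -0.717 to 2.023 for Pik3ip1. For MRTX1133 in 1027B the ranges were -0.08 to 0.407 for Foxo1, -0.482 to 0.129 for Foxo3, -0.328 to 0.024 for Foxo4 and -0.111 to 1.721 for Pik3ip1. For MRTX1133 in 3154 after ethanol the ranges were -0.093 to 0.098 for Foxo1, -0.556 to 0.03 for Foxo3, -0.148 to 0.232 for Foxo4, -0.88 to 0.214 for Insr and -0.193 to 0.722 for Irs1. For MRTX1133 in 3154 after 4OHT the ranges were -0.278 to 0.074 for Foxo3 and -0.047 to 0.033 for Foxo4. For trametinib in 1027B the ranges were -0.075 to 0.418 for Foxo1, -0.56 to 0.032 for Foxo3 and -0.988 to 1.312 for Pik3ip1. For trametinib in 3311 the ranges were -0.093 to 0.324 for Foxo1, -0.007 to 0.28 for Foxo3 and -0.138 to 0.315 for Igf1r. For trametinib in H1651 the ranges were -0.261 to 0.132 for Foxo1, -0.265 to 0.369 for Foxo3, -0.003 to 0.05 for Foxo4, -0.204 to 0.053 for Igf1r, -0.137 to 0.1 for Irs1, -0.123 to 1.003 for Pik3ip1 and -0.245 to 1.495 for Tp53inp1. For trametinib in H358 the range was -0.143 to 0.012 for Igf1r. For 4OHT under MRTX1133 the range was -0.441 to 0.043 for Foxo3. For 4OHT under vehicle at 48 h the ranges were -0.861 to 0.053 for Irs1 and -0.134 to 0.418 for Pik3ip1. For the interaction the ranges were -0.123 to 0.455 for Foxo3, -0.241 to 0.133 for Foxo4, -0.622 to 0.096 for Igf1r, -0.572 to 0.523 for Insr, -0.456 to 0.459 for Irs1 and -0.191 to 0.145 for Sesn3. For the difference between the human lines the ranges were -0.095 to 0.149 for Igf1r and -0.514 to 0.475 for Sesn3.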
